A study of Homo sapiens with 8 samples.

Results

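The insulin-like growth factor binding proteins are a family of secreted proteins, and their genes IGFBP1 to IGFBP7 were followed on whole-transcriptome arrays of SAS cells transfected with miRNA mimics. Members were all gene probes whose gene name on the array was one of these 7 symbols, which gave 9 probes among the 58201 gene probes with 43317 gene names. IGFBP7 had 3 probes and each other gene had 1. Among the 7 genes, all but IGFBP5 were detected well enough to be tested, which left 6 members among 21283 genes tested. SAS, an established human cell line from a squamous carcinoma of the tongue, is labelled squamous cancer, and the culture medium held puromycin. The 4 groups were SAS cells transfected with 25 nM of miR-629-3p, of miR-210-3p or of miR-874-3p, or with a negative control RNA (NC), with 2 arrays each. The labels give 48 h from transfection to extraction and 100 ng of RNA per array, while the methods of the study give a shorter time, another extraction kit and SAS cells that carry a GFP vector. Nothing states that the 2 arrays of a group came from separate cultures, so p-values measure only the spread between these arrays, which may be technical.

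IGF-binding proteins hold the growth factors IGF1 and IGF2 in blood and tissue fluid and regulate how much of them reaches the receptor IGF1R. Proteases release the ligands by cutting the binding proteins, and several binding proteins also act on cells without IGF, for example through integrins. In squamous epithelium IGFBP3 is a secreted product of keratinocytes. IGFBP7 binds IGF weakly and is counted as an IGFBP-related protein by many authors.

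All values are log2 of the background-subtracted signal relative to the 75th percentile of the same array. A value of 0 is therefore the signal of that percentile, and values of different probes were not set against each other. A gene was called when its adjusted p was under 0.05, computed by limma and adjusted over all 21283 genes by the Benjamini-Hochberg method. Between 41.8% and 49.8% of probes were well above background on an array, no spot was saturated, and the dimmest detected signal of an array lay between -3.74 and -2.82. All 8 arrays lay on 1 slide, with both NC arrays and both miR-874-3p arrays in row 2 and the other 4 arrays in row 1. The dimmest detected signal lay between -3.74 and -3.39 in row 1 and between -3.21 and -2.82 in row 2. Probes above background made up 46.5% to 49.8% in row 1 and 41.8% to 46.3% in row 2. Outlier spots numbered 87 to 162 in row 1 and 297 to 346 in row 2. Row and group cannot be told apart for miR-629-3p and miR-210-3p against NC, whereas miR-629-3p against miR-210-3p and miR-874-3p against NC are comparisons within a row. All 8 squamous epithelial markers on the array were well above background on all 8 arrays. Of 5 fibroblast markers, PDGFRB was above background on all 8 arrays, COL1A1 on 6, and COL1A2, DCN and LUM on none. Of 4 endothelial and 3 leukocyte markers, 2 each were above background on all arrays.

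The mature sequences of the mimicked miRNAs, as RefSeq gives them on GRCh38.p14, are shown because the seed, bases 2 to 8 in capitals, is the part that pairs with target mRNAs. All 3 miRNAs matched the table by name. The 3 seeds differ from one another. The mature sequences lie at chr15:70079387-70079408, chr11:568112-568133 and chr5:137647582-137647603, each on the minus strand.
hsa-miR-629-3p: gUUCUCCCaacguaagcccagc
hsa-miR-210-3p: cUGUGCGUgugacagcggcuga
hsa-miR-874-3p: cUGCCCUGgcccgagggaccga
The 60-base probes of the members were searched on the mRNA strand for the complement of each seed. For bases 2 to 8 the letters were GGGAGAA for miR-629-3p, ACGCACA for miR-210-3p and CAGGGCA for miR-874-3p, and 0 of the 9 member probes held any of them. Of all gene probes, 0.747%, 0.131% and 0.387% held these letters. With the shorter match to bases 2 to 7, 1 member probe held a match, that of IGFBP4 with GGAGAA for miR-629-3p, and 3.6% of all probes held the same letters. The probe bases around it are shown with the match in capitals, and the rest of each member's transcript was not searched. At such low shares, 9 probes of 60 bases cannot show whether the transcripts lack seed matches.
IGFBP4 probe, 30 bases around the match: cccagagtcagaGGAGAAgagacatgtacc

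With miR-629-3p, the signals of IGFBP3, IGFBP1, IGFBP2 and IGFBP4 were below those of the NC arrays, while those of IGFBP6 and IGFBP7 did not pass the test. IGFBP3 fell by 2.40 on the log2 scale. Under miR-210-3p IGFBP3 was the member called, at a log2 difference of -1.56, and no member was called under miR-874-3p. The arrays measure a culture as a whole, so fewer cells that express a gene and less RNA per cell cannot be told apart. The 3 comparisons share the NC arrays. In the plot of signals by array, the miR-629-3p points lie lowest of the 4 groups for IGFBP1, IGFBP2, IGFBP3 and IGFBP4 and highest for IGFBP7.

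**Figure D1:**
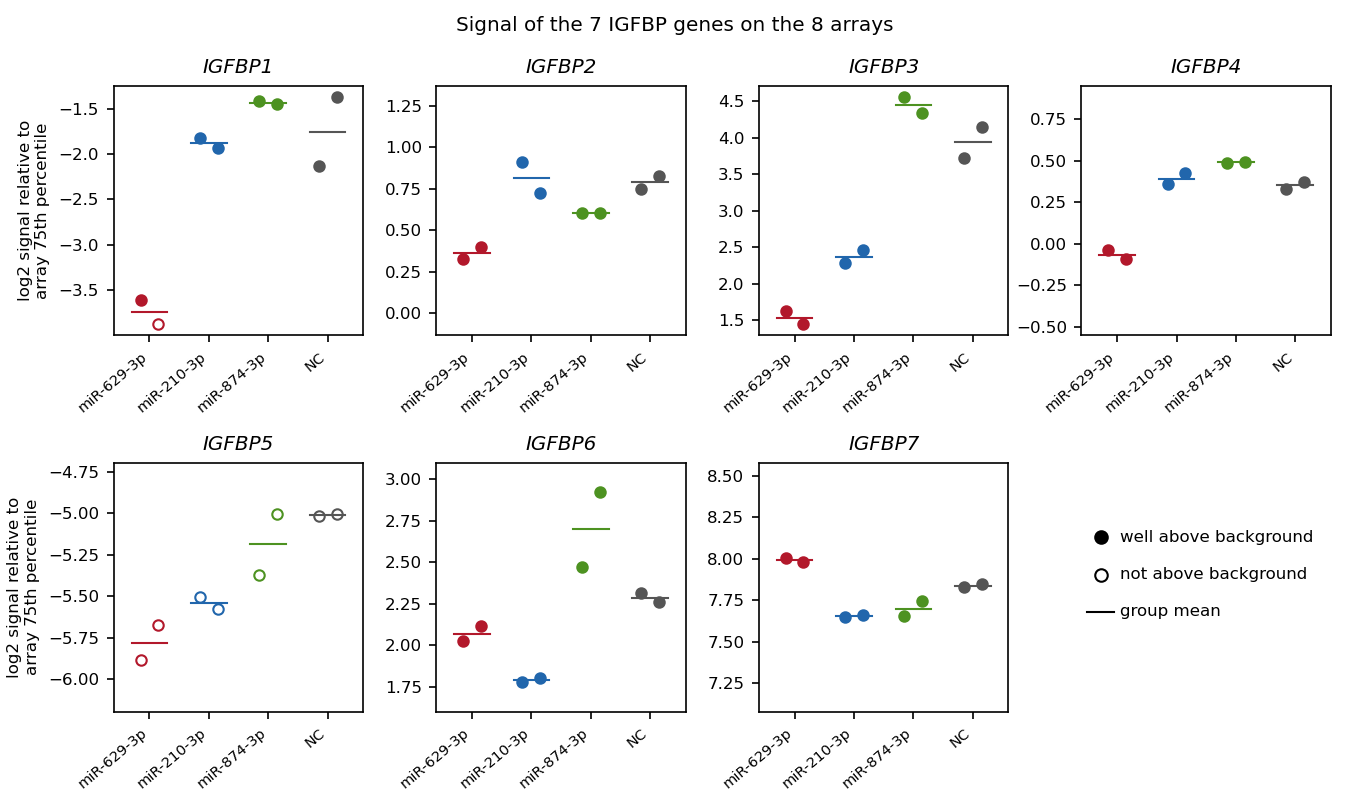
Log2 signal relative to the array's 75th percentile (y axis, a separate scale in each panel) of the 7 IGFBP genes on the 2 arrays of each group, with the group mean as a line. Filled points were well above background and open points were not. IGFBP3 reads 1.45 to 1.62 on the miR-629-3p arrays and 3.73 to 4.14 on the NC arrays, and IGFBP5 is open on all 8 arrays.

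Against NC, limma called 0 members higher and 4 lower with miR-629-3p, where 9.28% of all genes tested were called higher and 7.47% lower. The median log2 difference of the 6 tested members was -0.42, beside 0.02 for all genes tested. With miR-210-3p, 0 members were higher and 1 was lower, beside 3.85% and 2.2% of all genes, and the median was -0.15 beside 0.05. With miR-874-3p limma called 0 of 6, beside 0.216% of all genes called higher and 0.207% lower, and the median was 0.23 beside -0.01. At an unadjusted p under 0.05, 2 members passed with miR-874-3p by limma and 2 by the methods' t-test, which called 0 after adjustment. At the study's threshold of an unadjusted p under 0.05 and at least 2-fold, 2 members passed in the miR-629-3p comparison (5.26% of all genes), 1 in that of miR-210-3p (3.14%) and 0 in that of miR-874-3p (2.02%). The F test across the 4 groups called 6 of 6 tested members, beside 25.2% of all genes.

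**Figure D2:**
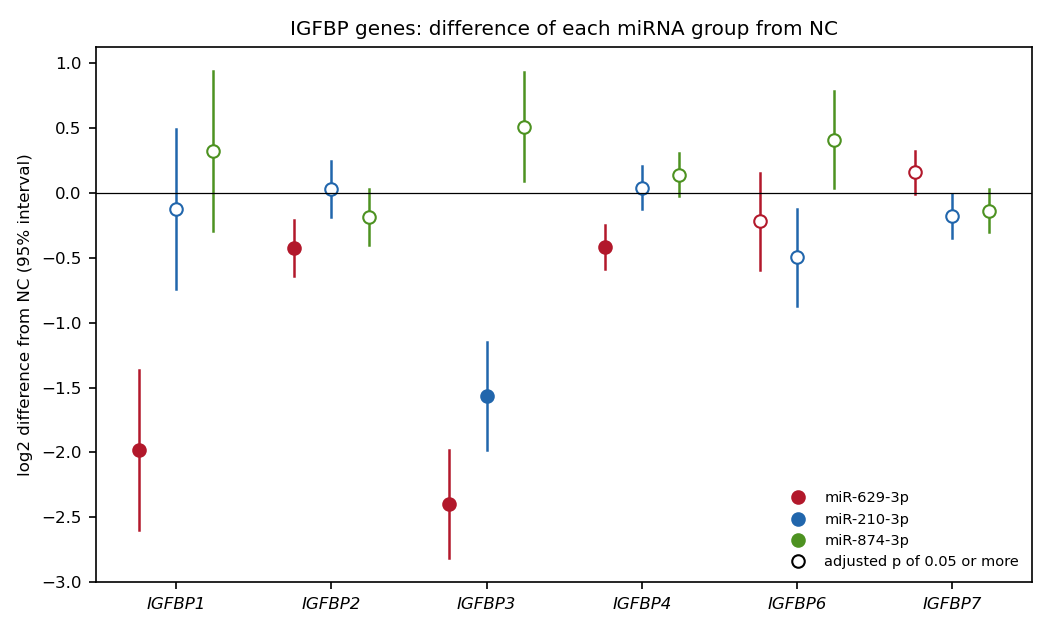
Log2 difference of each miRNA group from NC (y axis) for the 6 tested IGFBP genes, with 95% intervals from limma as bars. Filled points have an adjusted p under 0.05: IGFBP1, IGFBP2, IGFBP3 and IGFBP4 with miR-629-3p and IGFBP3 with miR-210-3p, all of them below 0.

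IGFBP3, the main IGF carrier in serum, lies on chromosome 7, and its probe covers chr7:45952608-45952667 on the minus strand of hg19. Its log2 signal was 1.62 and 1.45 in the miR-629-3p group, 2.28 and 2.47 in the miR-210-3p group, 4.55 and 4.34 in the miR-874-3p group, and 3.73 and 4.14 in the NC group. The groups did not overlap, and they ran in the order miR-629-3p, miR-210-3p, NC, miR-874-3p. All slide row 1 arrays were below all row 2 arrays. Against NC, the difference was -2.40 (SE 0.17, adjusted p = 0.00303 by limma) for miR-629-3p and -1.56 (SE 0.17, adjusted p = 0.0128) for miR-210-3p. For miR-874-3p, the last neighbour in that order, it was 0.51 with a 95% interval of 0.09 to 0.93 and an adjusted p of 0.231 by limma.

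Within slide row 1, IGFBP3 was lower with miR-629-3p than with miR-210-3p, at a log2 difference of -0.83 (SE 0.17, adjusted p = 0.0226 by limma). That call was lost when any 1 array of either group was left out, at adjusted p-values of 0.0815 to 0.117 by limma, and without the filter on detection (0.0792). Between the rows, the differences from miR-874-3p were -2.91 for miR-629-3p and -2.07 for miR-210-3p (adjusted p = 0.00214 and 0.00546 by limma). In the comparison with NC, the call with miR-629-3p was kept when any 1 array was left out. The call with miR-210-3p was lost without either of its own arrays, at an adjusted p of 0.0885 without replicate 1 and 0.0754 without replicate 2 by limma. It was also lost when only the 2 groups were fitted, at an adjusted p of 0.0604 by limma.

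The IGFBP3 probe is printed 10 times on each array, and so is that of IGFBP2, which shows how far a single spot can be trusted. For IGFBP3 the SD over spots was 0.035 to 0.08 on an array, with 1 outlier spot left out in all. The highest spot with miR-629-3p was 1.75 and the lowest with miR-210-3p was 2.16. The highest with miR-210-3p was 2.51 and the lowest with NC was 3.68, so the spots of these 3 groups did not overlap, although spots of an array are not replicates. For IGFBP2 the SD over spots was 0.038 to 0.111, with 3 spots left out. The highest IGFBP2 spot with miR-629-3p was 0.50 and the lowest with NC was 0.53, while the spots of miR-210-3p and NC overlapped.

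**Figure D3:**
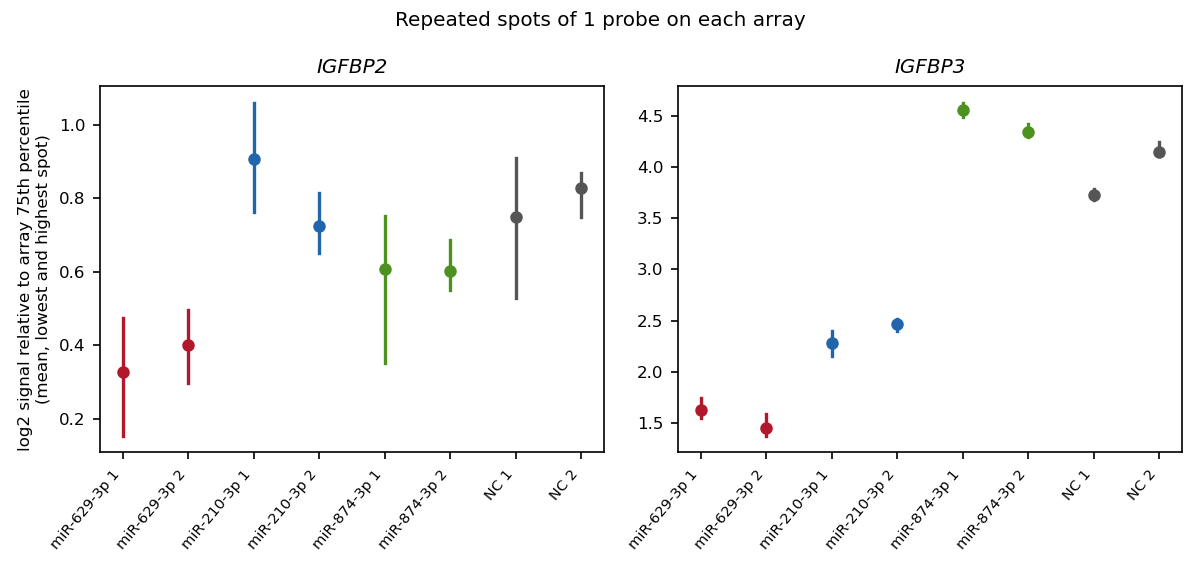
Log2 signal relative to the array's 75th percentile (y axis) of the repeated spots of the IGFBP2 and IGFBP3 probes on each of the 8 arrays (x axis), as the mean (point) with the lowest and the highest spot (bar ends). For IGFBP3 the bars of different groups do not overlap, while for IGFBP2 the NC bars overlap those of both miR-874-3p and miR-210-3p, and the miR-629-3p bars overlap those of miR-874-3p.

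IGFBP1, a liver and decidua product that insulin represses, is the neighbour of IGFBP3 on chromosome 7. Its probe at chr7:45932966-45933025 (hg19, plus strand) lies 19582 bases from that of IGFBP3, on the opposite strand. The log2 signal was -3.61 and -3.87 in the miR-629-3p group, -1.83 and -1.93 in the miR-210-3p group, -1.42 and -1.45 in the miR-874-3p group, and -2.14 and -1.38 in the NC group. The probe was well above background on 7 of the 8 arrays, and the exception was miR-629-3p replicate 2. Both miR-629-3p arrays were lower than the other 6, while the NC arrays spanned those of the other two miRNAs.

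Against NC, the fitted IGFBP1 difference with miR-629-3p was -1.98 in log2 (SE 0.25, adjusted p = 0.00969 by limma). Since 1 of the 2 miR-629-3p arrays was not well above background, detection limits the size of each IGFBP1 difference that involves this group. The size against NC also depended on the background correction, and with normexp it was -0.42 (adjusted p = 0.013 by limma). Without miR-629-3p replicate 1 or replicate 2, its adjusted p was 0.0553 or 0.0634 by limma. The difference was -0.12 (95% interval -0.74 to 0.49) for miR-210-3p and 0.32 (95% interval -0.29 to 0.94) for miR-874-3p. Within slide row 1, IGFBP1 was lower with miR-629-3p than with miR-210-3p, at a log2 difference of -1.86 (SE 0.25, adjusted p = 0.00807 by limma), and against miR-874-3p the difference was -2.30 (adjusted p = 0.00677). The call against miR-210-3p was lost without miR-629-3p replicate 2 (adjusted p = 0.0522 by limma) and without miR-210-3p replicate 1 (0.0555) or replicate 2 (0.0512).

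IGFBP2, which carries an integrin-binding motif and favours IGF2, is measured at chr2:217529086-217529145 (hg19, plus strand). Its log2 signal was 0.33 and 0.40 in the miR-629-3p group, 0.91 and 0.73 in the miR-210-3p group, 0.61 and 0.60 in the miR-874-3p group, and 0.75 and 0.83 in the NC group. The miR-629-3p arrays were the 2 lowest, and the miR-210-3p and NC arrays overlapped. The difference of miR-629-3p from NC was -0.42 (SE 0.09, adjusted p = 0.0301 by limma), and it was -0.45 from miR-210-3p (adjusted p = 0.0204). From miR-874-3p it was -0.24, with a 95% interval of -0.46 to -0.02 and an adjusted p of 0.122 by limma. From NC, miR-210-3p differed by 0.03 (95% interval -0.19 to 0.25) and miR-874-3p by -0.18 (95% interval -0.40 to 0.03). The call against NC was lost without any 1 array of either group, at adjusted p-values of 0.0745 to 0.149 by limma. So was the call against miR-210-3p, at 0.0549 to 0.109 without 1 array of its own 2 groups and 0.0894 without the filter on detection.

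IGFBP4, an inhibitor of IGF action that the protease PAPPA cuts, is measured at chr17:38613308-38613367 (hg19, plus strand). Its log2 signal was -0.04 and -0.09 in the miR-629-3p group, 0.36 and 0.42 in the miR-210-3p group, 0.49 on both arrays of the miR-874-3p group, and 0.33 and 0.37 in the NC group. The miR-629-3p arrays were again lowest, and the other 6 arrays lay within 0.33 to 0.49. The differences of miR-629-3p were -0.42 from NC (SE 0.07, adjusted p = 0.0165), -0.46 from miR-210-3p (adjusted p = 0.0101) and -0.56 from miR-874-3p (adjusted p = 0.00846), all by limma. The differences of the other two miRNAs from NC were 0.04 (95% interval -0.13 to 0.21) and 0.14 (95% interval -0.03 to 0.31). The call against NC was lost without any 1 array of either group, at adjusted p-values of 0.0536 to 0.0941 by limma. Leaving out 1 array of the 2 groups also ended the call against miR-210-3p (0.0584 to 0.0728). The call against miR-874-3p was lost without either miR-629-3p array, at 0.056 and 0.0605.

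IGFBP5, a matrix-bound member that lies beside IGFBP2, is measured at chr2:217537167-217537226 (hg19, minus strand), 8021 bases from the IGFBP2 probe. Its signal was well above background on none of the 8 arrays, at -5.89 to -5.00, so it was not tested and no order of its groups is given.

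IGFBP6, which binds IGF2 far more strongly than IGF1, is measured at chr12:53494853-53494912 (hg19, plus strand). Its log2 signal was 2.02 and 2.11 in the miR-629-3p group, 1.78 and 1.80 in the miR-210-3p group, 2.47 and 2.92 in the miR-874-3p group, and 2.32 and 2.26 in the NC group. The miR-210-3p arrays were lowest and the miR-874-3p arrays highest, and the latter were 0.45 apart. All slide row 1 arrays were below all row 2 arrays. Within row 1, miR-629-3p was 0.28 above miR-210-3p, which was not called (adjusted p = 0.242 by limma). No difference from NC was called, at -0.22 (95% interval -0.59 to 0.16) for miR-629-3p, -0.50 (95% interval -0.87 to -0.12, adjusted p = 0.113 by limma) for miR-210-3p and 0.41 (95% interval 0.04 to 0.79, adjusted p = 0.271) for miR-874-3p. Across the rows, against miR-874-3p, IGFBP6 was lower with miR-210-3p, at a difference of -0.91 (SE 0.15, adjusted p = 0.0259 by limma). It was also lower with miR-629-3p, at -0.63 (adjusted p = 0.0447 by limma). Of 22 alternatives, 11 ended the first call and 12 the second, the replicate block among them (adjusted p = 0.0505 and 0.065 by limma).

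IGFBP7, a secreted protein of vessel walls and epithelium also called mac25, had 3 probes on the minus strand of chromosome 4 (hg19), at chr4:57897423-57897482, chr4:57906990-57907049 and chr4:57896947-57897006. The first, the brightest, was used for the gene. It read 8.01 and 7.98 in the miR-629-3p group, 7.65 and 7.66 in the miR-210-3p group, 7.66 and 7.74 in the miR-874-3p group, and 7.83 and 7.85 in the NC group. The miR-629-3p arrays were highest and the miR-874-3p arrays overlapped those of miR-210-3p.

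Against NC, no IGFBP7 difference was called, at 0.16 (95% interval -0.01 to 0.32) for miR-629-3p, -0.18 (95% interval -0.35 to -0.01) for miR-210-3p and -0.14 (95% interval -0.30 to 0.03) for miR-874-3p. The signal was 0.34 higher with miR-629-3p than with miR-210-3p (SE 0.07, adjusted p = 0.0221 by limma) and 0.29 higher than with miR-874-3p (adjusted p = 0.0389). Of 22 alternatives, 7 ended the first call and 13 the second. Both were lost with the replicate number as a block (adjusted p = 0.0521 and 0.0825 by limma) and without either miR-629-3p array. The second probe read 7.11 and 7.06 in the miR-629-3p group, 6.69 and 6.72 in the miR-210-3p group, 6.79 and 6.86 in the miR-874-3p group, and 7.0 and 7.03 in the NC group. In a fit of all probes it differed by 0.38 between miR-629-3p and miR-210-3p (adjusted p = 0.0193 by limma), and by 0.26 between miR-629-3p and miR-874-3p (adjusted p = 0.0628).

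The third IGFBP7 probe, 416 bases from the brightest, went its own way on 1 array. It read 0.60 and 0.53 in the miR-629-3p group, -0.16 and -0.18 in the miR-210-3p group, 0.04 and 0.35 in the miR-874-3p group, and 1.50 and 0.10 in the NC group. The 2 NC arrays were 1.40 apart, against 0.02 for the brightest probe, and no comparison of the third probe was called.

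**Figure D4:**
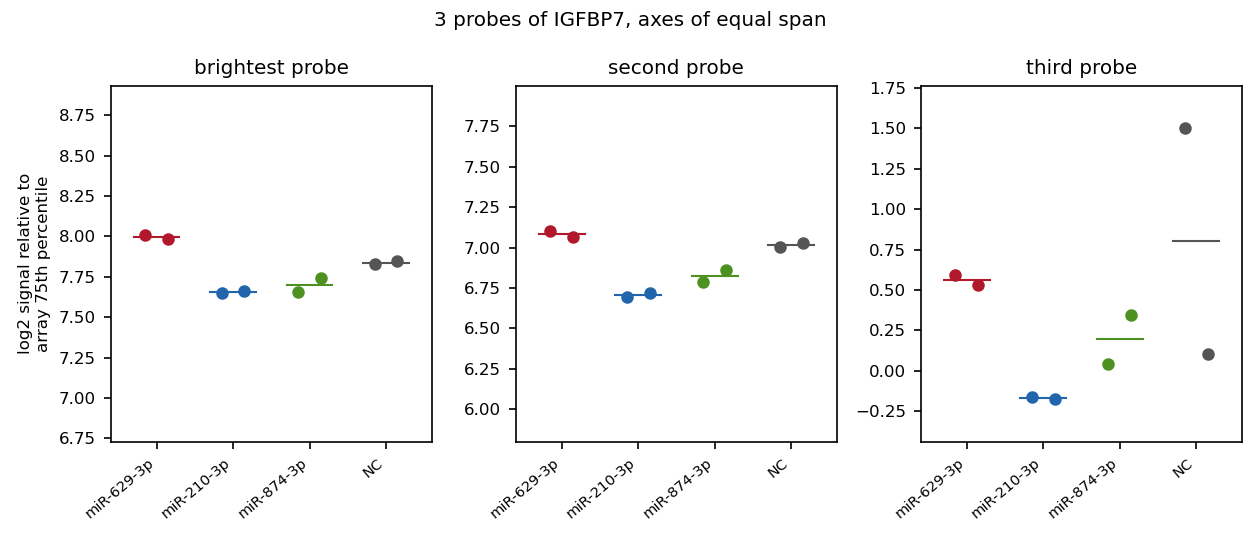
Log2 signal relative to the array's 75th percentile (y axis, equal span in each panel) of the 3 IGFBP7 probes on the 2 arrays of each group, with the group mean as a line. The brightest and the second probe run in the same order of groups, with miR-629-3p highest, while the third probe reads 1.50 on 1 NC array and 0.10 on the other.

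Between the miRNAs, limma called 5 members in miR-629-3p against miR-210-3p, 1 higher and 4 lower, beside 22.6% of all genes in either direction. Against miR-874-3p, 1 member was higher and 4 were lower with miR-629-3p, beside 16.2% of all genes. With miR-210-3p, 2 members were lower than with miR-874-3p, beside 9.8% of all genes. IGFBP7 was the member that was higher with miR-629-3p in both comparisons.

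Over the 8 arrays, IGFBP1 and IGFBP4 ran most alike of the 15 pairs of members, at a Pearson r of 0.97. IGFBP1 and IGFBP3 had an r of 0.84 and IGFBP3 and IGFBP4 one of 0.81. IGFBP7 ran against IGFBP4 (-0.88) and IGFBP1 (-0.81) and had no clear relation to IGFBP6 (-0.02). These values describe 8 arrays that fall into 4 groups on 1 slide. Among the other tested genes, those most like IGFBP3 were TCTN1 (r = 0.996), KLHDC3 (0.991) and C10orf10 (0.991). SLC2A14 (0.994), PAM (0.988) and RGS2 (0.985) were most like IGFBP4, and FUT11 (0.987) and EPPK1 (0.984), after the transcript ENST00000534728 (0.988), most like IGFBP1. PRPS2 (0.986) and HNRNPKP3 (0.980) were most like IGFBP2. WNT6 (0.984), lnc-C14orf79-2 (0.983) and lnc-MMRN1-2 (0.981) were most like IGFBP6. ZBTB45 (0.990), STAT2 (0.988) and NOV (0.980), itself an IGFBP-related protein, were most like IGFBP7.

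Of the members called lower with miR-629-3p, IGFBP3 and IGFBP4 had 1 listed start site each, and the 250 bases before it are shown. The sequences are from RefSeq on GRCh38.p14, where 5 of the 7 members matched by symbol. IGFBP2, also called lower, had several start sites and is not shown. The IGFBP3 stretch is chr7:45921273-45921522 on the minus strand and the IGFBP4 stretch chr17:40443200-40443449 on the plus strand. Capitals mark the GC box GGGCGG on either strand.
IGFBP3: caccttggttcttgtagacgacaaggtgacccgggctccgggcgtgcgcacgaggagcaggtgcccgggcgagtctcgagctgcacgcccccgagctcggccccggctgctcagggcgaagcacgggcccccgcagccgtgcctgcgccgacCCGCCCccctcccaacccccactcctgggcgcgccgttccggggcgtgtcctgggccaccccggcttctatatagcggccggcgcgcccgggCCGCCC
IGFBP4: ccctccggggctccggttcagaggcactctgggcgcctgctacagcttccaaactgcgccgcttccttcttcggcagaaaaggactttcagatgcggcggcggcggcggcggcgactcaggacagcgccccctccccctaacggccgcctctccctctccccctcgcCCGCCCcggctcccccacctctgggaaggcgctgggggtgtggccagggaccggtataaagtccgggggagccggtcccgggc
The IGFBP3 stretch held 2 GC boxes and the IGFBP4 stretch 1, and 42.6% of all 35116 promoters in the table held at least 1 in the same window. IGFBP2 held 1, 1 and 0 at its start sites. IGFBP6, which was not called against NC, held 1, and IGFBP5, which was not tested, held 0. Of the hypoxia response element core, only the form ACGTG was searched. It was in neither stretch, and 18.5% of all promoters held it. The form GCGTG, which occurs in the IGFBP3 stretch, was not counted. The exact letters TATAA were found in IGFBP4 and not in IGFBP3, and 18.9% of all promoters held them on either strand. The IGFBP3 stretch holds TATATA, a form that was not counted.

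The rest of the IGF axis was represented by 55 genes on the array, of which 42 were tested. With miR-629-3p, 9 were higher and 4 lower than in NC, beside 9.28% and 7.47% of all genes, with a median of 0.14 beside 0.02. Under miR-210-3p, 3 were higher and 4 lower, beside 3.85% and 2.2% of all genes, with a median of 0.11 beside 0.05. With miR-874-3p limma called 0, while 8 passed an unadjusted p under 0.05 by limma and 7 by the methods' t-test, which called 0 after adjustment. The number called moved with single arrays, and it was 1 with miR-629-3p without either miR-629-3p array and 1 for miR-210-3p without either miR-210-3p array.

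**Figure D5:**
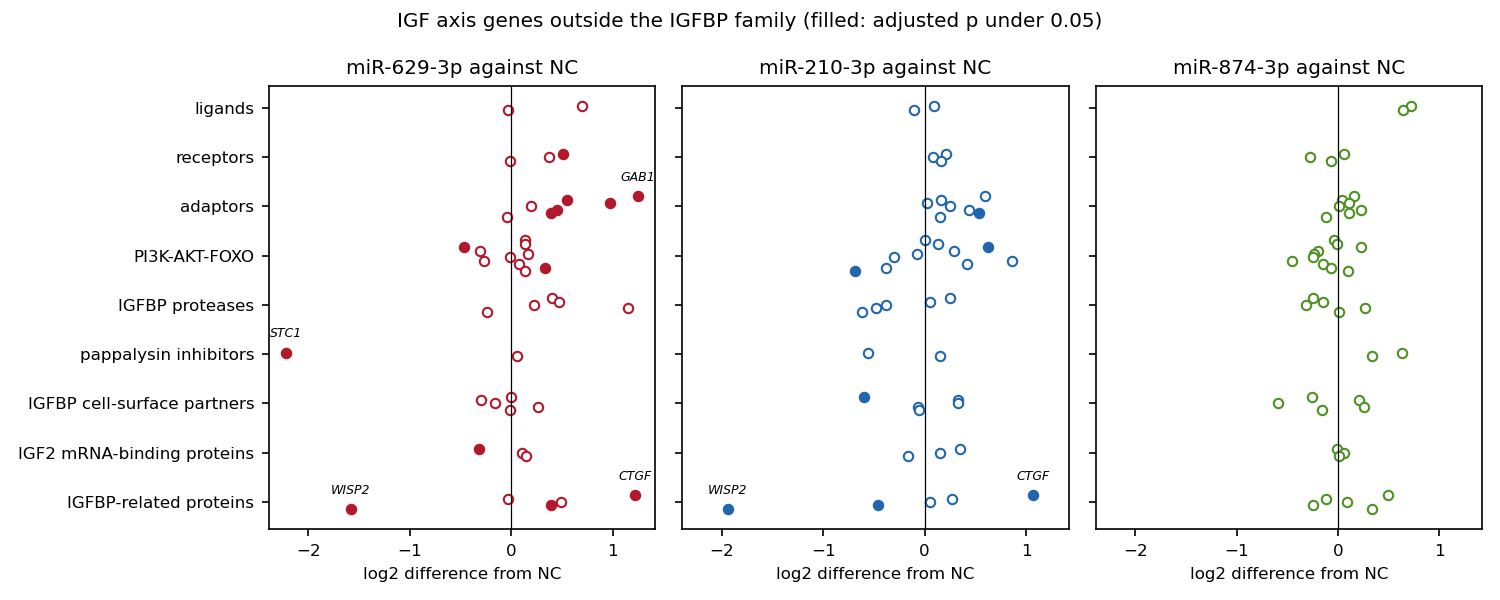
Log2 difference from NC (x axis) of the 42 tested IGF axis genes outside the family, by list (y axis), with 1 panel per miRNA. Filled points have an adjusted p under 0.05 by limma, and called genes with a fitted change of at least 2-fold are named. 5 of 7 adaptors are filled with miR-629-3p, and no point is filled with miR-874-3p.

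Of the ligands, IGF2 read -1.46 and -1.35 in the miR-629-3p group, -2.06 and -1.95 in the miR-210-3p group, -1.58 and -1.19 in the miR-874-3p group, and -1.79 and -2.42 in the NC group. No IGF2 difference from NC was called, at 0.70 (SE 0.23, adjusted p = 0.0978 by limma) for miR-629-3p, 0.10 for miR-210-3p and 0.72 for miR-874-3p (adjusted p = 0.229). INS, the insulin gene, read -3.09 to -0.91 and was above background on 5 arrays and on neither NC array. It was not called, at fitted differences from NC of -0.03 for miR-629-3p, -0.10 for miR-210-3p and 0.64 for miR-874-3p. IGF1 was above background on 2 of the 8 arrays and was not tested.

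Of the receptors, IGF1R, which transmits the IGF signal, read 3.02 and 3.06 in the miR-629-3p group, 2.77 and 2.73 in the miR-210-3p group, 2.50 and 2.67 in the miR-874-3p group, and 2.48 and 2.59 in the NC group. Both miR-629-3p arrays lay above the other 6, and all slide row 1 arrays lay above all row 2 arrays. Against NC, across the rows, IGF1R was 0.51 higher with miR-629-3p (SE 0.09, adjusted p = 0.0184 by limma). Its differences from NC of 0.22 for miR-210-3p and 0.05 for miR-874-3p were not called. Within row 1, limma did not call IGF1R between miR-629-3p and miR-210-3p after adjustment. IGF2R, which clears IGF2, differed from NC by 0.38 for miR-629-3p, 0.09 for miR-210-3p and -0.28 for miR-874-3p, and INSR, the insulin receptor, by -0.01, 0.16 and -0.07 in the same order, none of them called. INSRR and IGFALS, the partner of IGFBP3 in the circulating complex, were above background on no array.

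Among the 7 tested adaptors of the receptors, 5 rose with miR-629-3p, 1 rose under miR-210-3p and none was called under miR-874-3p. There, 0 also passed an unadjusted p under 0.05 by limma and by the methods' t-test. The 5 were IRS1, IRS2, GAB1, GRB10 and GRB14, and their effect on signalling was not tested. IRS1, IRS2, GAB1 and GRB10 were higher on all slide row 1 arrays than on all row 2 arrays, and GRB14 was not. Within row 1, between miR-629-3p and miR-210-3p, limma called 2 of the 7 adaptors. Of all genes tested, 9.28% were called higher under miR-629-3p and 3.85% under miR-210-3p. After adjustment, the methods' t-test called 0 of the 7 adaptors under either miRNA. GAB1 was above background on both miR-629-3p arrays (-2.0 and -2.30) and on neither NC array. It was also detected on both miR-210-3p arrays and on neither miR-874-3p array, so its detection followed the slide row. The GAB1 signal was at least 1.61-fold higher with miR-629-3p than in NC (adjusted p = 0.0274 by limma). Such a bound sets the mean of the brighter group against the dimmest detected signal of each array of the dimmer group, or against the probe's own signal where that is higher. Of 10 PI3K-AKT-FOXO genes, 1 rose and 1 fell with miR-629-3p and likewise with miR-210-3p.

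The 5 tested IGFBP proteases gave 0 calls with each miRNA by limma and by the methods' t-test after adjustment. At an unadjusted p under 0.05, 1 passed with miR-629-3p and 0 with each other miRNA, by limma and by the methods' t-test alike. Of the 2 stanniocalcins, secreted inhibitors of the protease PAPPA, STC1 was above background on neither miR-629-3p array, on 1 of 2 NC arrays and on 4 arrays in all. It was called lower with miR-629-3p than in NC (adjusted p = 0.0107 by limma), and no size is given because 1 NC array was also not above background. STC1 passed the filter on detection only through miR-874-3p, the group with both arrays above background. Of 5 cell-surface partners, 1 fell with miR-210-3p, and of 3 IGF2 mRNA-binding proteins, 1 fell with miR-629-3p.

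Of the 5 tested IGFBP-related proteins, 2 rose and 1 fell with miR-629-3p, and 1 rose and 2 fell with miR-210-3p. CTGF, a matricellular protein with an IGFBP-like domain, read -0.25 and -0.18 in the miR-629-3p group, -0.41 and -0.31 in the miR-210-3p group, -0.81 and -1.07 in the miR-874-3p group, and -1.34 and -1.53 in the NC group. It rose by 1.22 with miR-629-3p (SE 0.12, adjusted p = 0.00574 by limma) and by 1.07 with miR-210-3p (adjusted p = 0.0134), and its difference with miR-874-3p was not called. WISP2, of the same group, read 0.15 and 0.12 in the miR-629-3p group, -0.47 and 0.02 in the miR-210-3p group, 1.89 and 2.20 in the miR-874-3p group, and 1.67 and 1.76 in the NC group. It fell by 1.58 with miR-629-3p (SE 0.18, adjusted p = 0.00817 by limma) and by 1.94 with miR-210-3p (adjusted p = 0.0106). Like IGFBP3 and IGFBP6, WISP2 was lower on all slide row 1 arrays than on all row 2 arrays, and CTGF and IGF1R were higher there. The part of the slide row in these results was not tested.

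Some cell type markers moved with miR-629-3p as well. Of the 8 tested squamous epithelial markers, 1 rose and 3 fell with miR-629-3p, beside 9.28% and 7.47% of all genes. With miR-210-3p 0 rose and 4 fell, beside 3.85% and 2.2% of all genes. Of the 2 tested leukocyte markers, limma called 0 with either miRNA. The log2 of the summed signal of these 8 markers was 8.50 to 8.54 in the miR-629-3p group, 7.99 to 8.0 in the miR-210-3p group, 8.64 to 8.93 in the miR-874-3p group and 8.82 to 8.93 in the NC group. Of the fibroblast markers, 1 of 2 tested (PDGFRB) rose with each of these miRNAs, and of the endothelial markers, 1 of 3 tested (VWF) rose with miR-629-3p. The log2 of the summed signal of the 5 fibroblast markers was -0.70 to -0.67 in the miR-629-3p group, -0.17 to 0.98 in the miR-210-3p group, -0.83 to -0.75 in the miR-874-3p group and -0.92 to -0.90 in the NC group. Among them, COL1A1 read 0.53 on 1 miR-210-3p array and -1.63 on the other. For the 4 endothelial markers it was 1.34 to 1.46 in the miR-629-3p group, 0.50 to 0.72 in the miR-210-3p group, 0.40 to 0.87 in the miR-874-3p group and 0.62 to 0.81 in the NC group. Their part in the IGFBP differences was not tested.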

How the data were processed

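For each array the authors deposited the intensity values of Agilent Feature Extraction 11.5.1.1 (1 colour, SurePrint G3 Human GE v3), which are background-subtracted by the scanner software and not normalized between arrays, with flags per spot. A table of log2 values was deposited too, whose scale the sources used here do not state. After an offset of -0.05 to 0.004 per array, 100% of its probes lay within 0.05 of the values used here, so it is close to log2 signal minus the 75th percentile, and it served as an alternative.

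From the processed intensity, log2 signal minus each array's 75th percentile over gene probes was taken. Control spots and outlier spots (87 to 346 per array) were dropped, and the mean over a probe's spots was taken. Kept probes had a value on all 8 arrays and at least 1 group with both arrays well above background. The brightest probe stood for each gene name. Groups came from the labels. limma 3.58.1 in R 4.3.3 was fitted on all 8 arrays without covariates (4 residual and 1.68 prior degrees of freedom), and 95% intervals are from that fit. The number of arrays limits the precision. The script was tested on simulated data. The alternatives were normexp (offset 50), quantile normalization, median centring, the deposited log2 values, outlier spots kept, a floor, no filter or detection on all 8 arrays, every probe, only the 2 groups compared, eBayes with trend, a replicate block, the methods' t-test or ANOVA, the study's threshold, and each array left out in turn.

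The members and gene lists were chosen with earlier results of these data known. Named were all members and their probes, the ligands and receptors, other IGF axis genes called against NC with at least 2-fold change, and the 3 genes with the highest r for each member called by the F test, of which 1 is not reported here. The other genes named, the markers PDGFRB and VWF, were chosen after their values were seen. Coordinates of probes come from the array annotation (hg19). Protein sequences were not used here.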

Additional observations from a re-analysis of the deposited data

Results flagged for a closer look

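The differences from NC were compared between the miRNAs directly with limma, and those with an adjusted p under 0.05 are listed as log2 differences. Between miR-629-3p and miR-210-3p, which share slide row 1, they were -1.86 for IGFBP1, -0.45 for IGFBP2, -0.83 for IGFBP3, -0.46 for IGFBP4 and 0.34 for IGFBP7. STC1 differed by a fitted -1.66 there, with the gene above background on neither miR-629-3p array and on 1 miR-210-3p array. Detection limits that size.

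Between miR-629-3p and miR-874-3p, the differences were -2.30 for IGFBP1, -2.91 for IGFBP3, -0.56 for IGFBP4, -0.63 for IGFBP6 and 0.29 for IGFBP7. Outside the family they were 0.45 for IGF1R, 0.66 for IGF2R, 0.73 for CTGF and -1.91 for WISP2. GAB1 differed by a fitted 1.09, with no miR-874-3p array above background, and STC1 by a fitted -2.85, with no miR-629-3p array above background. Detection limits both sizes. The STC1 signals of -5.13 and -5.25 with miR-629-3p lay below the dimmest detected signals of those arrays, -3.74 and -3.59. STC1 passed the filter on detection only through miR-874-3p, the higher group here, so the filter favoured this difference. No conclusion is drawn from the STC1 call.

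Between miR-210-3p and miR-874-3p, the differences were -2.07 for IGFBP3, -0.91 for IGFBP6, 0.58 for CTGF and -2.27 for WISP2. Both comparisons with miR-874-3p cross the slide rows, so row and group cannot be told apart in them.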

How the results depend on the processing

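Each of 36 differences of a member between groups was recomputed under the alternatives, which gave 786 values. Of these, 674 kept direction and side of the threshold, 101 lost the call, 4 gained one and 7 changed sign. None of the differences that changed sign had been called. For miR-210-3p against NC, median centring gave -0.015 for IGFBP2 and -0.0033 for IGFBP4. The others arose when 1 array was left out: for miR-210-3p against NC, IGFBP1 ranged from -0.50 to 0.26 and IGFBP2 from -0.063 to 0.12, with -0.01 without NC replicate 1. For miR-874-3p against NC, IGFBP1 ranged from -0.057 to 0.70, and between miR-210-3p and miR-874-3p IGFBP7 ranged from -0.086 to 0.0024. The cause was not tested.

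Counts of called members that changed by over 1.5 times were these. With miR-629-3p against NC the 4 became 2 when only the 2 groups were fitted, 0 with the methods' t-test and 2 at the study's threshold. With miR-210-3p against NC the 1 became 0 without a filter on detection, with only the 2 groups and with the t-test. Across the 4 groups the 6 became 3 without a filter and 3 with the replicate block. Between miR-629-3p and miR-210-3p the 5 became 1 without a filter, 1 with the t-test and 1 at the study's threshold. Between miR-629-3p and miR-874-3p the 5 became 3 without a filter, 2 with only the 2 groups, 3 with the replicate block, 0 with the t-test and 2 at the study's threshold. Between miR-210-3p and miR-874-3p the 2 became 1 without a filter, 0 with only the 2 groups, 1 with the replicate block, 0 with the t-test and 1 at the study's threshold.

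Of the IGF axis genes, the 13 called with miR-629-3p became 7 with only the 2 groups, 7 with the replicate block, 0 with the t-test and 5 at the study's threshold. The 7 with miR-210-3p became 13 with normexp, 0 without a filter, 0 with only the 2 groups, 12 with trend, 3 with the replicate block, 0 with the t-test and 2 at the study's threshold. The 0 with miR-874-3p by limma became 2 with normexp, 1 with detection on all 8 arrays and 1 with trend.

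When each array was left out in turn, the members called against NC ranged from 1 to 4 with miR-629-3p, 0 to 2 with miR-210-3p and 0 to 0 with miR-874-3p. They ranged from 1 to 6 across the 4 groups, 0 to 6 between miR-629-3p and miR-210-3p, 2 to 5 between miR-629-3p and miR-874-3p and 1 to 2 between miR-210-3p and miR-874-3p. The IGF axis genes ranged from 1 to 14 with miR-629-3p, 1 to 9 with miR-210-3p and 0 to 0 with miR-874-3p. Where 1 array was left in a group, its spread was taken from the remaining groups. The members called with miR-629-3p were 1 without either miR-629-3p array and 2 without either NC array.

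The groups share replicate numbers, but the numbers did not pair the arrays: the correlation of same-numbered arrays' deviations from the group means was -0.11 to 0.03. With the replicate number as a block, IGFBP3 stayed called with miR-629-3p (adjusted p = 0.0117 by limma) and with miR-210-3p (0.0378), while IGFBP2 lost its call with miR-629-3p (0.0664). Signal over background limits IGFBP1, near the dimmest detected signal with miR-629-3p, and IGFBP5.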
